A study of Mus musculus with 24 samples.

Results

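Potassium channel genes were followed in mouse lens with and without a shortage of glutathione. The 7 genes were Kcnd1, Kcnd2, Kcnd3, Kcnip3, Kcnb2, Kcnj13 and Kcnk1, taken by name from a table of 24415 genes, in which 90 other potassium channel genes were also listed. They were chosen by name with the fold changes between conditions in these libraries known, so what they showed within the epithelia and within the fibers is a description and carries no test. The data are RNA sequencing counts from 24 libraries of C57BL/6 mouse lens, with 4 libraries in each of 6 groups. Lens epithelia and cortical fiber cells were each taken from wild type lenses without treatment (WT), from untreated LEGSKO lenses, and from LEGSKO lenses treated with buthionine sulfoximine (LEGSKO+BSO). LEGSKO is known as a knockout of Gclc in the lens. Gclc encodes the catalytic subunit of glutamate-cysteine ligase, the first enzyme of glutathione synthesis, and BSO inhibits the same enzyme. The series describes LEGSKO as mildly and LEGSKO+BSO as severely deficient in glutathione, so BSO was given only on top of the knockout. The sources used here give neither the Cre driver, age and sex of the mice and dose of BSO, nor whether each library is an animal of its own, and a p-value measures only how far these libraries spread, which may be technical.

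Potassium channels let potassium leave the cell along its gradient and so hold the membrane potential negative. In the lens, which has no blood supply, the potassium conductance lies mostly in the epithelium and outer cells, where the sodium pump also works, and both are part of a circulating ionic current that is thought to carry solutes into the fiber mass. Kcnd1, Kcnd2 and Kcnd3 encode the pore-forming subunits of the Kv4 family, voltage-gated channels that open and inactivate quickly and carry the A-type current known from heart and neurons. Kcnip3 encodes a calcium-binding protein of the KChIP family, which joins Kv4 channels and is also known as a repressor of transcription. Kcnb2 encodes a delayed rectifier of the Kv2 family, Kcnj13 an inward rectifier best known from the retinal pigment epithelium, and Kcnk1 a leak channel of the family in which each subunit carries a pair of pore domains.

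Kcnd3 and Kcnj13 were the members called in opposite directions in LEGSKO epithelia, and the 250 bases before their annotated starts are shown to let their promoters be compared. The sequences come from RefSeq (GRCm38.p6) and read 5′ to 3′ on the gene's strand, with matches to the E-box letters CANNTG in capitals.

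Kcnd3 promoter, chr3:105451640-105451889, plus strand: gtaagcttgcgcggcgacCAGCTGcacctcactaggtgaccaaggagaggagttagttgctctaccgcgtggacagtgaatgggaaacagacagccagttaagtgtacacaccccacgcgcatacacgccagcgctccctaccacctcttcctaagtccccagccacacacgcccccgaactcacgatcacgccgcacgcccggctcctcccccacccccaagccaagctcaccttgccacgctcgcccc

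Kcnj13 promoter, chr1:87394730-87394979, minus strand: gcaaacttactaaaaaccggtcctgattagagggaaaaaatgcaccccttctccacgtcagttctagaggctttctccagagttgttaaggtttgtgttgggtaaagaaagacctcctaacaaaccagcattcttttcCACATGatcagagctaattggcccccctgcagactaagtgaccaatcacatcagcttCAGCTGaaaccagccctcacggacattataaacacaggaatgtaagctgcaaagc

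The Kcnd3 stretch held 1 E-box match and overlapped an exon of the antisense gene Kcnd3os, and the Kcnj13 stretch held 2 matches. Of 32851 mouse promoters of the same length, 66.2% held at least 1 match on either strand, so these letters are common. Other motifs searched on both strands were the core of the antioxidant response element (TGACNNNGC), the site of the factor Nrf2, and the MAF site (TGCTGAC), the site of the lens factors of the MAF family, whose letters can overlap those of the first. They were in 10.2% and 3.81% of the promoters. Neither was in these windows or in those of the other members with an entry, which were 5 of 7. These matches are descriptions of the letters and say nothing of factor binding.

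The libraries held 19340282 to 46569611 counts each. The LEGSKO+BSO fibers were the deepest group, with at least 39034309 counts in each library. Levels are given as counts-per-million values (CPM) scaled within a tissue, unless said otherwise. Gclc, the targeted gene, was at 66.6 to 96.0 CPM over WT epithelia, 44.6 to 70.5 over those of LEGSKO and 63.6 to 108 over those of LEGSKO+BSO lenses, and at 70.4 to 135, 66.9 to 81.2 and 69.3 to 79.3 CPM over the fibers. These ranges overlap, and a count over the whole gene does not check a deletion of part of it. The tissue labels were in keeping with their markers. The epithelial marker Foxe3 was at 188 to 538 CPM in epithelia and 1.22 to 13.9 in fibers, and the fiber marker Dnase2b at 0.863 to 3.57 and 134 to 376. Crystallin genes took 50.1% of the counts of WT fibers library 1 and 27.6% to 29.6% of those of WT fibers 2, 3 and 4. Genes of retinal neurons and photoreceptors (16 listed, 16 measured) summed to 39.2 to 493 CPM in single epithelial libraries and 10.2 to 53.1 in fibers.

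Kcnd3 had the highest mean level per length of the Kv4 genes and was lower in glutathione-deficient epithelia. It lies on chromosome 3 (chr3:105451890-105674002, GRCm38.p6, plus strand). In WT epithelia libraries 1 to 4 it stood at 20.0, 16.6, 10.9 and 11.3 CPM. In LEGSKO epithelia it stood at 5.75, 6.42, 6.13 and 6.60 CPM, and in LEGSKO+BSO epithelia at 5.33, 5.73, 5.10 and 3.91 CPM. Every WT library was above all 8 libraries of the other conditions, and the WT libraries themselves split into a higher and a lower pair. The log2 fold change against WT was -1.24 ± 0.19 (SE) in LEGSKO and -1.55 ± 0.19 in LEGSKO+BSO epithelia. LEGSKO+BSO was lower than LEGSKO by a smaller step, -0.32 ± 0.19, again with no overlap of the 4 and 4 libraries.

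The same gene moved less in fibers. WT fibers libraries 1 to 4 were at 6.06, 5.95, 5.73 and 6.22 CPM, which is a narrow range. LEGSKO fibers were at 4.30, 3.22, 4.21 and 4.02 CPM and LEGSKO+BSO fibers at 3.11, 5.59, 3.73 and 4.10 CPM, with all of these below the lowest WT fiber library. Against WT fibers the log2 difference was -0.60 ± 0.17 with LEGSKO alone and -0.53 ± 0.16 with BSO added, and neither passed the threshold of the fit (adjusted p below 0.05). Kcnd3os, transcribed from the other strand beside Kcnd3, had 0 to 12 counts in every library, and the counting is not stated to use strand.

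The retinal marker sum in WT epithelia libraries 1 to 4 was 493, 139, 100.5 and 298 CPM, in LEGSKO 266, 72.3, 383 and 43.6, and in LEGSKO+BSO 39.2, 66.5, 158 and 94.2. The part of retinal RNA in the Kcnd3 difference was not tested. Genes of corneal and conjunctival epithelium (6 listed, 6 measured) summed to 93.7 to 139 CPM in WT, 199 to 211 in LEGSKO and 163 to 193 in LEGSKO+BSO epithelia. Krt15 and Krt19 were called higher against WT in both conditions and made up most of that sum, while Krt5 and Krt12 were at or below 0.793 CPM in every epithelial library. This sum moved with the epithelial differences of Kcnd3, Kcnd1 and Kcnj13, and its part in them was not tested. In bulk tissue, fewer cells of a type and less RNA per cell cannot be told apart.

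Kcnd1, on chromosome X (chrX:7823759-7838278, plus strand), went the same way in epithelia at a lower level. WT epithelia libraries 1 to 4 were at 4.60, 5.48, 3.72 and 6.30 CPM. LEGSKO epithelia were at 2.39, 1.86, 2.52 and 3.24 CPM and LEGSKO+BSO epithelia at 1.65, 2.67, 1.57 and 1.5 CPM. All WT libraries were above all others, while LEGSKO and LEGSKO+BSO overlapped. The log2 fold change against WT was -1.0 ± 0.24 in LEGSKO, which was not called, and -1.45 ± 0.25 in LEGSKO+BSO, which was called but not without LEGSKO+BSO epithelia library 1 or 3.

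In fibers Kcnd1 was too low for the filter on counts. Its WT fiber libraries held 2, 23, 18 and 28 counts, the LEGSKO fiber libraries 6, 3, 5 and 4, and the LEGSKO+BSO fiber libraries 7, 9, 9 and 3. WT libraries 2 to 4 were above all others, and WT library 1, the crystallin-rich one, lay among the deficient lenses. Without that library Kcnd1 passed the filter, at -2.07 ± 0.44 in LEGSKO, where 4.34% of all genes were called, and -2.31 ± 0.41 in LEGSKO+BSO, where 7.9% were, and it was called in each. This repeat was chosen after the library's crystallin share was seen. Kcnd1 passed its filter through the WT fiber counts alone, so it had to be lower in the other conditions. Nothing is read from these calls.

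**Figure D1:**
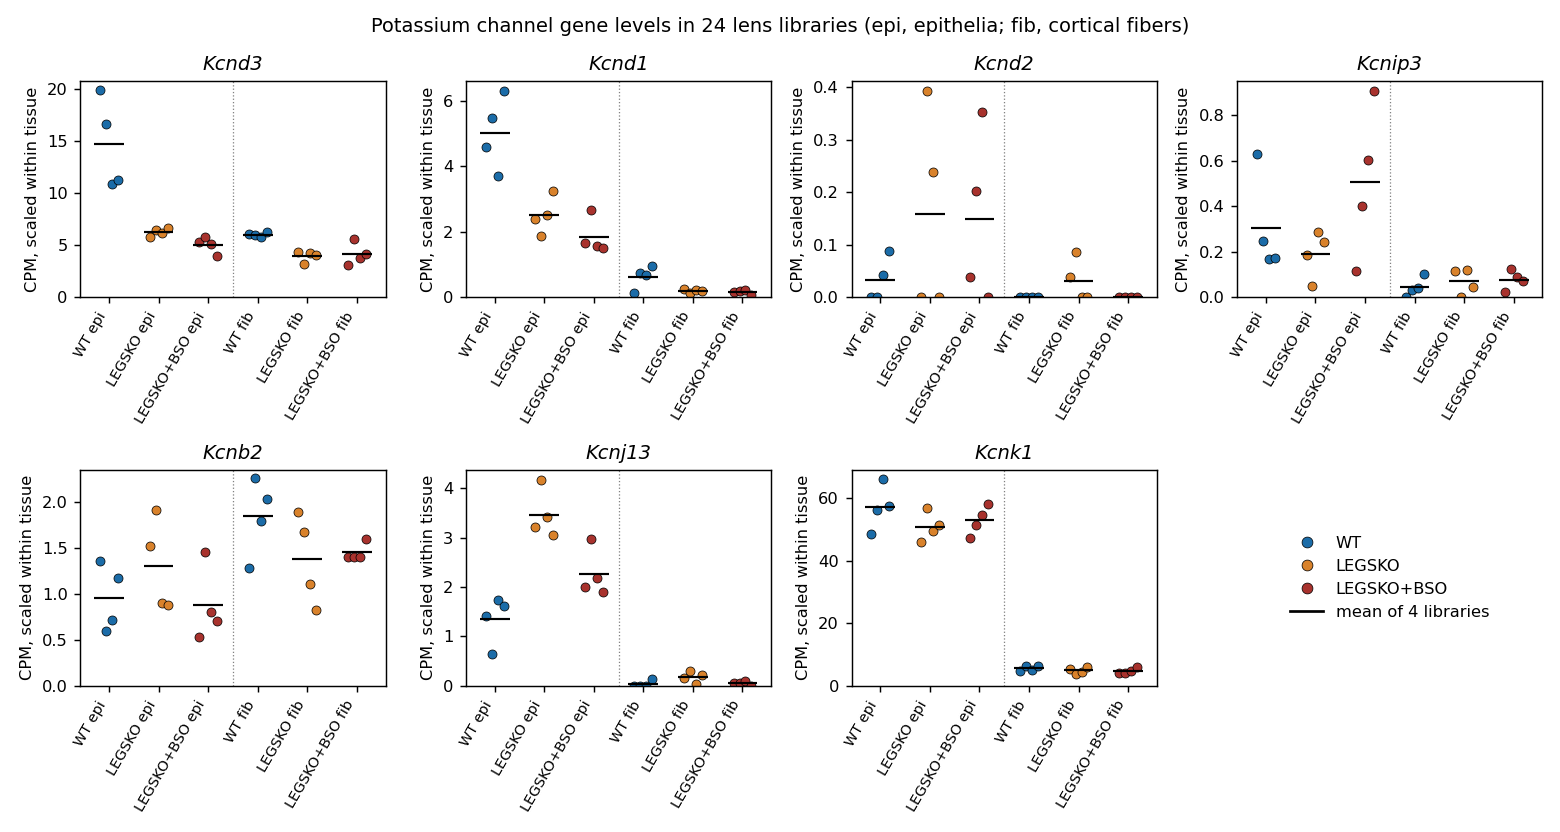
Levels of the 7 genes in every library, as CPM scaled within a tissue, with 1 point per library, a bar at the mean of each group of 4 and a separate vertical axis from 0 for each gene. Kcnd3 and Kcnd1 are highest in the 4 WT epithelia libraries, Kcnj13 is lowest there among epithelia, and Kcnk1 averages 50.8 to 57.0 CPM in all 3 groups of epithelia.

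Kcnd2, the third Kv4 gene (chr6:21215346-21729805, plus strand), was close to absent. Its epithelial libraries had 0, 0, 1 and 2 counts for WT, 0, 8, 5 and 0 for LEGSKO and 1, 4, 7 and 0 for LEGSKO+BSO. WT and LEGSKO+BSO fibers had 0 counts in all libraries, each of which allows up to 3 counts, and LEGSKO fibers had 1, 2, 0 and 0. It did not pass the filter in any fit, and no difference was detectable at this depth.

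Among the Kv4 partners, Kcnip3 (chr2:127456498-127522094, minus strand) was scarce too. Its epithelial libraries had 13, 5, 4 and 4 counts for WT, 4, 1, 6 and 6 for LEGSKO and 3, 8, 12 and 32 for LEGSKO+BSO, with 0 to 6 counts in single fiber libraries. The highest library, LEGSKO+BSO epithelia 4, reached 0.906 CPM, and the 3 epithelial groups overlapped. Kcnip3 passed no filter with all 24 libraries.

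The KChIP genes with more counts were Kcnip1 and Kcnip4. Per kilobase of exon and scaled over all 24 libraries, Kcnip1 was at 0.737 ± 0.204 CPM per kb (SD, n = 4) in WT epithelia and Kcnip4 at 0.488 ± 0.034, against 0.058 ± 0.041 for Kcnip3 and 1.04 ± 0.30 for Kcnd3. Kcnip2, Dpp6 and Dpp10, other partners of Kv4 channels, were at or below 0.0551 CPM per kb on average in every group. Neither Kcnip1 (log2 fold change 0.05 ± 0.27 in LEGSKO and -0.57 ± 0.28 in LEGSKO+BSO) nor Kcnip4 (-0.66 ± 0.21 and -0.22 ± 0.21) was called against WT in epithelia in edgeR's quasi-likelihood test, with adjusted p between 0.168 and 0.950. Of the KCNE and Kv beta subunits, which can also join voltage-gated channels, Kcne4 was at 7.70 to 84.9 CPM in single WT epithelia libraries, Kcne1 at 4.94 to 10.7, Kcnab1 at 36.0 to 49.3, Kcnab2 at 11.9 to 16.9 and Kcnab3 at 0.839 to 2.04. Kcne2, Kcne3 and Kcne1l stayed at or below 1.07 CPM in every library.

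**Figure D2:**
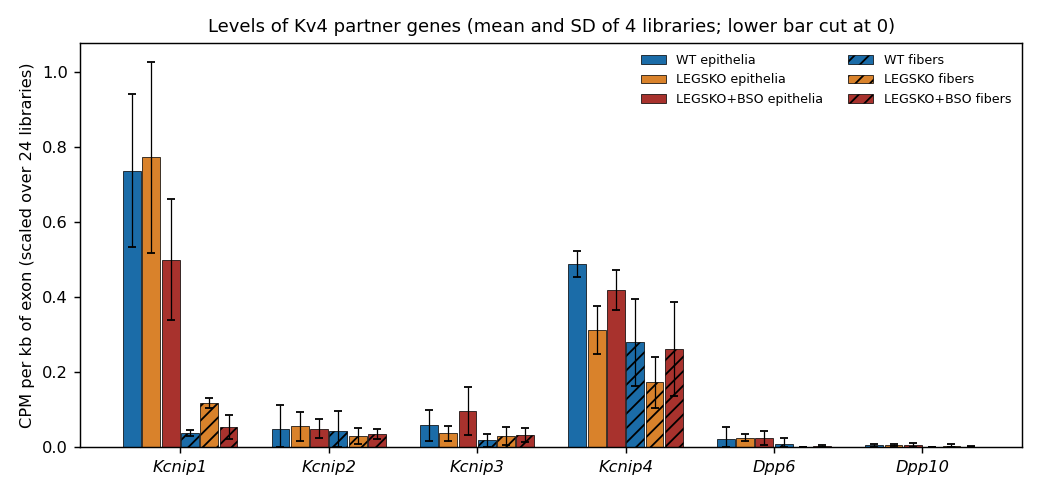
Levels of 6 genes for partners of Kv4 channels in the 6 groups, as CPM per kilobase of exon scaled over 24 libraries, with bars at the mean and error bars of 1 SD of 4 libraries. Kcnip1 (0.737 in WT epithelia) and Kcnip4 (0.488) stand above Kcnip3 (0.058) there.

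Kcnb2 (chr1:15286925-15723751, plus strand) was low in epithelia and was not called between conditions in either tissue. The epithelial libraries were at 1.36, 0.592, 0.718 and 1.17 CPM for WT, 1.52, 1.91, 0.903 and 0.881 for LEGSKO, and 0.526, 1.46, 0.808 and 0.708 for LEGSKO+BSO. These ranges overlap throughout. The fiber libraries were at 1.28, 2.27, 1.8 and 2.04 CPM for WT, 1.90, 1.68, 1.11 and 0.821 for LEGSKO, and 1.40, 1.41, 1.41 and 1.60 for LEGSKO+BSO, which overlap as well. The log2 fold change against WT was 0.44 ± 0.40 and -0.15 ± 0.41 in epithelia and -0.44 ± 0.26 and -0.36 ± 0.25 in fibers, for LEGSKO and LEGSKO+BSO. Predicted transcripts with Gm numbers overlap the gene, so some of its reads may be theirs.

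Kcnj13 (chr1:87384577-87394729, minus strand) was higher in deficient epithelia, against the direction of Kcnd3 and Kcnd1. WT epithelia libraries 1 to 4 were at 1.41, 0.641, 1.73 and 1.61 CPM. LEGSKO epithelia were at 3.22, 4.16, 3.42 and 3.04 CPM and LEGSKO+BSO epithelia at 1.99, 2.97, 2.17 and 1.90 CPM. The 3 groups did not overlap, and LEGSKO+BSO lay between WT and LEGSKO. The log2 fold change against WT was 1.35 ± 0.28 in LEGSKO, which was called, and 0.73 ± 0.28 in LEGSKO+BSO, which was not, and LEGSKO+BSO was below LEGSKO by -0.62 ± 0.27. The LEGSKO call was lost when WT epithelia library 2 or 4 or LEGSKO epithelia library 2, 3 or 4 was left out, with values from 1.13 to 1.45, and also with the replicate number as a block (1.35, adjusted p = 0.0756).

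Genes of the retinal pigment epithelium (7 listed, 7 measured), where Kcnj13 is known to be active, summed to 9.22 to 23.3 CPM in WT, 7.88 to 31.3 in LEGSKO and 7.43 to 55.8 in LEGSKO+BSO epithelia. The defining marker Rpe65 was at 0.493 to 2.07, 0.160 to 2.33 and 0.150 to 5.25 CPM, and the part of this tissue in the Kcnj13 difference was not tested. Kcnj13 lies inside Gigyf2, a gene of the opposite strand read at 59.4 to 67.5 CPM in every epithelial library. Gigyf2 itself was at 0.02 ± 0.06 in LEGSKO and -0.04 ± 0.06 in LEGSKO+BSO epithelia (log2 fold change against WT). In fibers Kcnj13 had 0, 0, 0 and 4 counts for WT, 4, 7, 1 and 5 for LEGSKO and 2, 3, 4 and 0 for LEGSKO+BSO, which is too few to compare.

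Kcnk1 (chr8:125993655-126030685, plus strand) had the highest level of the members in epithelia, and it was not called between conditions in either tissue. The epithelial libraries were at 48.5, 56.3, 66.0 and 57.3 CPM for WT, 45.9, 56.7, 49.4 and 51.3 for LEGSKO, and 47.4, 51.5, 54.7 and 58.2 for LEGSKO+BSO. The groups overlapped. The log2 fold change against WT was -0.17 ± 0.09 (95% interval -0.35 to 0.02) in LEGSKO and -0.11 ± 0.09 (-0.29 to 0.08) in LEGSKO+BSO epithelia. In fibers the libraries ran from 4.84 to 6.39 CPM in WT, 3.87 to 6.05 in LEGSKO and 3.98 to 5.86 in LEGSKO+BSO, with log2 fold changes of -0.22 ± 0.17 and -0.27 ± 0.17.

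Of the 7 members, 5 passed the filter in epithelia and 3 in fibers. Against WT, 2 of the 5 were called in epithelia of LEGSKO, where 0.842% of all genes tested were, and 2 of the 5 in LEGSKO+BSO, where 1.17% were. These contrasts chose the members, so nothing is read from the difference. No member was called between LEGSKO+BSO and LEGSKO epithelia, where 0.722% of genes were. In fibers edgeR called 0 of 3 in each comparison with WT, where 1.64% (LEGSKO) and 5.52% (LEGSKO+BSO) of genes were called. In each of these 2 comparisons 1 of the 3 had an unadjusted p below 0.05, and DESeq2 called 1, which was Kcnd3. The shares of genes called, here and below, are those of edgeR's adjusted p. None is given for DESeq2 or for an unadjusted p, so nothing is read from those counts. Between LEGSKO+BSO and LEGSKO fibers, where 0.0298% of genes were called, edgeR and DESeq2 both called 0 members and 0 had an unadjusted p below 0.05. The 4 libraries of one group did not overlap the 4 of the other for 3 members in each comparison of epithelia with WT (8.45% and 7.63% of all genes), for 2 between LEGSKO+BSO and LEGSKO epithelia (12.3%), for 1 in each comparison of fibers with WT (8.68% and 14.5%) and for 0 between LEGSKO+BSO and LEGSKO fibers (8.99%). The median log2 fold change of the members tested was -0.17 in LEGSKO and -0.15 in LEGSKO+BSO epithelia, beside -0.01 over all genes in each.

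**Figure D3:**
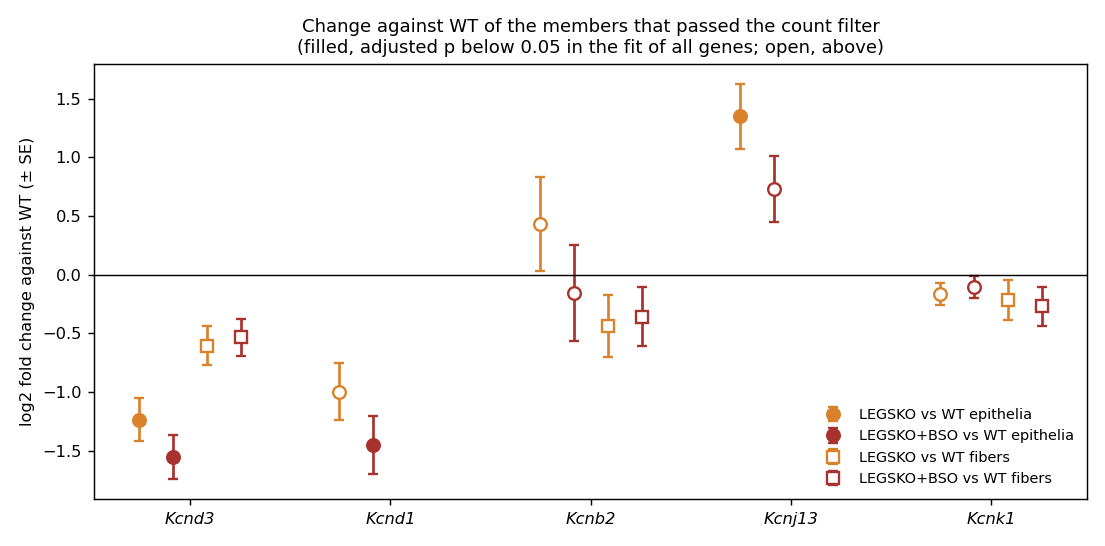
Log2 fold change against WT, with the SE of the fit, of the 5 members that passed the count filter in epithelia (circles) and the 3 that passed in fibers (squares). Filled symbols mark an adjusted p below 0.05 over all genes, and Kcnd3 shows larger drops in epithelia (-1.24 and -1.55) than in fibers (-0.60 and -0.53).

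The difference between tissues in the response was estimated in the fit of all 24 libraries, as the log2 fold change in fibers minus that in epithelia. For Kcnd3 it was 0.61 ± 0.26 in LEGSKO and 1.02 ± 0.25 in LEGSKO+BSO (95% interval 0.53 to 1.52), a smaller drop in fibers. As Kcnd3 was picked for its epithelial drop, this is a description. For Kcnk1 the difference was -0.07 ± 0.19 and -0.17 ± 0.18, and for Kcnb2 -0.88 ± 0.47 and -0.20 ± 0.48. The edgeR fit called 0 of the 5 members tested in either condition, where 0.103% (LEGSKO) and 0.276% (LEGSKO+BSO) of genes were called. In each condition 1 member had an unadjusted p below 0.05, and DESeq2 called 0 and 1, the latter Kcnd3. For these counts no share over all genes is given. Leaving out WT epithelia library 4 brought Kcnd3 in LEGSKO+BSO to 1.13 ± 0.25 and a call in edgeR.

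Fibers and epithelia of the same condition were also compared. This comparison uses the epithelial libraries whose levels chose Kcnd3, Kcnd1 and Kcnj13, so their values between tissues are descriptions, and a p is given only for Kcnk1 and Kcnb2. On counts scaled over 24 libraries, Kcnk1 was at 32.5 to 45.0 CPM in WT epithelia and 7.12 to 9.40 in WT fibers, with no overlap, a log2 fold change of -2.20 ± 0.13 (edgeR's quasi-likelihood test, adjusted p = 1.32e-13). It was -2.27 ± 0.14 in LEGSKO and -2.37 ± 0.13 in LEGSKO+BSO. Kcnd1 was at 2.54 to 4.23 CPM in WT epithelia and 0.164 to 1.40 in WT fibers (log2 fold change -1.84 ± 0.34), with -2.64 ± 0.42 in LEGSKO and -2.41 ± 0.39 in LEGSKO+BSO. The Kcnj13 difference in WT was -3.94 ± 0.68, a value that rests on 4 counts in the 4 WT fiber libraries together. Kcnd1 and Kcnj13 passed the filter through their epithelial counts alone, so they had to be lower in fibers. The marker sum of the retinal pigment epithelium, scaled within each tissue, was 7.43 to 55.8 CPM in single epithelial libraries and 0.034 to 2.03 in fibers, and its part in the Kcnj13 difference was not tested.

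Kcnb2 went the other way. It was at 0.402 to 0.909 CPM in WT epithelia and 1.88 to 3.34 in WT fibers, with no overlap and a log2 fold change of 2.08 ± 0.34 (adjusted p = 5.90e-06). In LEGSKO the fold was 1.19 ± 0.34 (adjusted p = 0.00259) with overlapping libraries, and in LEGSKO+BSO 1.88 ± 0.34 (adjusted p = 1.86e-05) with none. With library totals in place of scaling factors the WT, LEGSKO and LEGSKO+BSO values were 0.95, 0.09 and 0.83 (SE 0.37 for each), and the LEGSKO call was lost (adjusted p = 0.812).

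The side on which Kcnd3 fell depended on the condition and the scaling. It was at 7.44 to 13.4 CPM in WT epithelia and 8.49 to 9.17 in WT fibers (-0.17 ± 0.18, 95% interval -0.51 to 0.18). The log2 difference, fibers minus epithelia, was 0.45 ± 0.19 in LEGSKO and 0.86 ± 0.18 in LEGSKO+BSO. With library totals, which moved the median of all genes by -1.16, -1.10 and -1.06 in the 3 conditions, the values became -1.33, -0.65 and -0.21, lower in fibers.

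Between WT fibers and epithelia 76.4% of all genes were called, with 75.8% in LEGSKO and 78.9% in LEGSKO+BSO. Of the 5 members tested 4 were called in WT and 5 in each of the others, Kcnd1 and Kcnj13 among them, so nothing is read from these counts. Their libraries did not overlap for 4 members in WT (67.5% of all genes), 4 in LEGSKO (71.1%) and 5 in LEGSKO+BSO (76.1%). Ranked by level per kilobase among 97 potassium channel genes, Kcnk1 held rank 4 in WT epithelia at 17.3 ± 2.3 CPM per kb, next to Kcnh2 at 17.4, and rank 6 in WT fibers at 3.72 ± 0.51. Kcnj12, an inward rectifier that is no member, was the top gene in all 6 groups at 75.6 to 120.6 CPM per kb. Kcnd3 (1.04 ± 0.30), Kcnj13 (0.716 ± 0.261) and Kcnd1 (0.642 ± 0.140) followed in WT epithelia at ranks 19, 21 and 23, with overlapping spreads. Kcnip3 (0.058 ± 0.041) and Kcnb2 (0.043 ± 0.016) did not differ beyond their spread, and Kcnd2 came last at 0.004 ± 0.005. In WT fibers the order was Kcnk1, Kcnd3 (0.921 ± 0.030), Kcnb2 (0.179 ± 0.041), Kcnd1 (0.172 ± 0.10), Kcnj13 (0.039 ± 0.079) and Kcnip3 (0.018 ± 0.018). In LEGSKO epithelia Kcnj13 (1.86 ± 0.26) stood above Kcnd3 (0.444 ± 0.028), while the means in WT epithelia were in the other order.

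**Figure D4:**
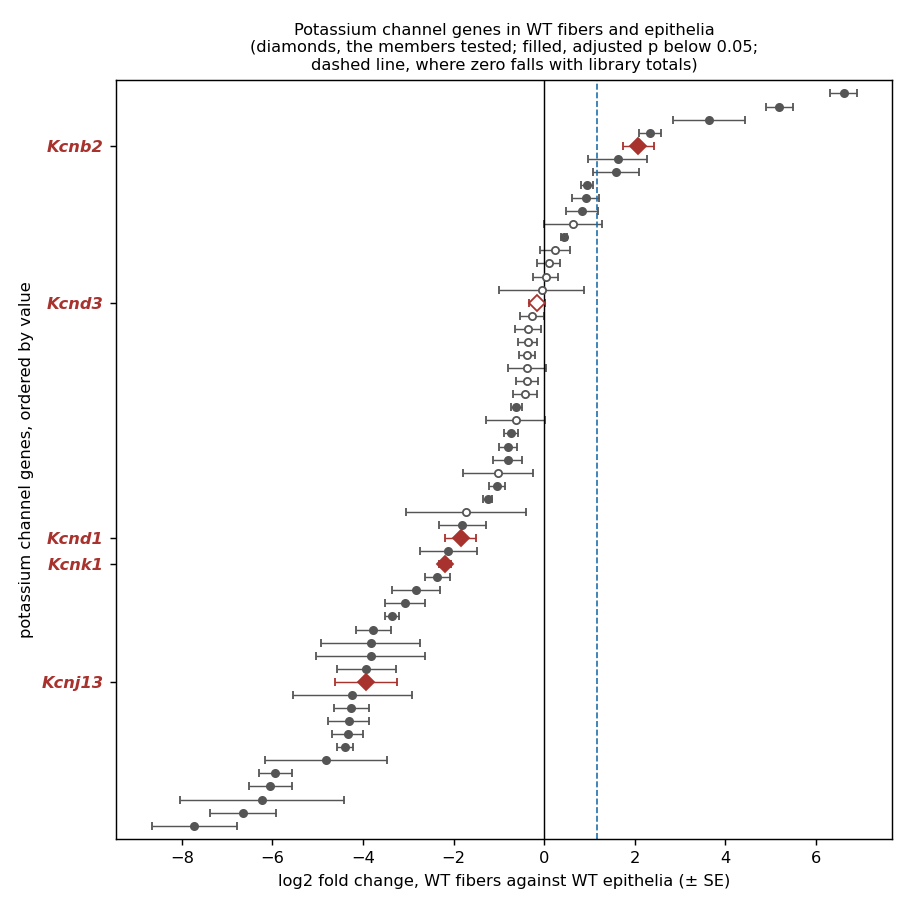
Log2 fold change of WT fibers against WT epithelia, with the SE of the fit, for the 57 potassium channel genes tested, ordered by value. Red diamonds, the named genes, are the 5 members tested, filled symbols have an adjusted p below 0.05, and the dashed line at 1.16 shows where 0 falls when library totals replace the scaling factors, with Kcnb2 to its right and Kcnd3 to its left.

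Of the 90 other potassium channel genes, 47 passed the filter in epithelia. In LEGSKO against WT epithelia 2 of the 47 were called higher and 0 lower, where 0.842% of all genes were called. Kcna5, a Kv1 channel of the delayed rectifier type, rose from 27.9 to 31.4 CPM over the WT libraries to 47.4 to 52.2 in LEGSKO, by 0.77 ± 0.10 on the log2 scale (edgeR's quasi-likelihood test, adjusted p = 0.00294). Abcc9, a sulfonylurea receptor subunit of channels gated by ATP, rose from 16.6 to 18 CPM to 22.6 to 26.3 (0.52 ± 0.09, adjusted p = 0.0101). Both kept their calls without any 1 of the 8 libraries compared. The marker sum of corneal and conjunctival epithelium was higher in the same LEGSKO libraries, and its part in these rises was not tested. Krt15 and Krt19 made up most of that sum, while Krt5 and Krt12 were at or below 0.37 CPM in these LEGSKO libraries.

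In LEGSKO+BSO epithelia Abcc9 was again higher than WT, at 21.7 to 26.8 CPM (0.50 ± 0.09, adjusted p = 0.0125), and it lost the call only without LEGSKO+BSO library 1. It was the 1 gene of 47 called there, where 1.17% of all genes were. Kcna5 overlapped WT in range, at 29.2 to 43.3 CPM (0.34 ± 0.10, adjusted p = 0.112). Abcc8, the other sulfonylurea receptor, was the 1 gene of 47 called between LEGSKO+BSO and LEGSKO epithelia (0.722% of all genes), at 16.6 to 24.3 against 7.56 to 12.5 CPM (1.02 ± 0.17, adjusted p = 0.0208). That call was lost in 5 of 8 repeats that left out a library, namely LEGSKO epithelia 2 or 4 or LEGSKO+BSO epithelia 1, 3 or 4. The median log2 fold change of the 47 was -0.16 in LEGSKO and 0.00 in LEGSKO+BSO against WT, beside -0.01 over all genes in each.

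In fibers 32 of the 90 were tested. Kcnab2, a Kv beta subunit, was the 1 called in LEGSKO+BSO against WT (5.52% of all genes), at 4.31 to 6.37 against 2.46 to 5.50 CPM (0.77 ± 0.22, adjusted p = 0.0495), with overlap. It lost the call in 6 of 8 repeats, without WT fibers 2, 3 or 4 or LEGSKO+BSO fibers 1, 3 or 4. None of the 32 was called by edgeR or DESeq2 in LEGSKO against WT fibers or in LEGSKO+BSO against LEGSKO fibers, where 6 and 4 genes had an unadjusted p below 0.05. For the difference between tissues edgeR called 0 of 52 in either condition, with 4 and 6 at an unadjusted p below 0.05, and DESeq2 called 0 in LEGSKO and 1, Abcc9, in LEGSKO+BSO.

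Between tissues 37 of 52 of these genes were called in each condition, against 76.4%, 75.8% and 78.9% of all genes, with 10, 11 and 9 higher in fibers in WT, LEGSKO and LEGSKO+BSO. With library totals 45, 44 and 45 differed, and 4 were higher in fibers in each condition. Among the well measured ones, Kcnma1, the large-conductance channel gated by calcium (5.19 ± 0.29 on the log2 scale), and Kcnj14, an inward rectifier (2.34 ± 0.24), were higher in WT fibers. The largest drops were in Kcne4 (-6.65 ± 0.73), Kcne1 (-6.05 ± 0.47), Kcna5 (-5.94 ± 0.36) and Kcnab1 (-4.39 ± 0.18). Kcne4, Kcne1 and Kcna5 had 0 to 11 counts in single WT fiber libraries and passed the filter through epithelia alone, so they had to be lower in fibers. Kcnma1, Kcnj14 and Kcnab1 passed the filter in each tissue, with adjusted p from 9.88e-17 to 2.68e-09 in edgeR's test. Kcnn1, a small-conductance channel gated by calcium, was higher in fibers in LEGSKO and LEGSKO+BSO (1.33 ± 0.30 and 1.24 ± 0.28). Its WT means went the same way, at 1.33 ± 0.72 CPM (SD, scaled over 24 libraries) in epithelia and 2.55 ± 0.38 in fibers. Library totals moved the median of all genes by -1.10 and -1.06 in LEGSKO and LEGSKO+BSO, nearly the size of these folds. In LEGSKO Kcnmb4 (-4.83 ± 0.47) took the place of Kcnab1 among the largest drops, again with too few counts in fibers to pass there.

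By class, 10 of 15 auxiliary subunits tested were called lower in WT fibers and 0 higher (median -1.73), beside a median of -0.09 over all genes, and 7 auxiliary subunits passed the filter within fibers. In the family of Kcnk1, 4 of 6 were called lower and 0 higher (median -2.09), and 3 passed within fibers. The voltage-gated genes had 9 lower and 5 higher of 16 (median -0.99). Genes that passed through epithelia alone had to be lower, so no lean of a class is read from these counts. The sodium pump genes, the other route of potassium, showed 0 of 7 called in any comparison of conditions in epithelia and 0 of 5 in fibers, by edgeR and by DESeq2. At an unadjusted p below 0.05 in edgeR there were 3, all in LEGSKO+BSO against WT epithelia. Between tissues 6 of 7 were called lower in WT fibers than in WT epithelia (median -3.98), where 76.4% of all genes were called in either direction. Only 5 of the 7 passed the filter within fibers, and the others had to be lower. No lean of the pump genes is read from this count or median.

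Across the 24 libraries, after each tissue's mean was taken off, Kcnd1 and Kcnd3 went together (Pearson r of log2 CPM 0.668) and Kcnd3 and Kcnj13 apart (r = -0.505). The libraries share the conditions that chose the genes, so these are descriptions. By the same measure the genes of most similar pattern to Kcnd3 were Adgrl2 (r = 0.853), Rimklb (0.847) and Eif2ak2 (0.830), among 11476 genes compared. For Kcnb2 they were Tsen15 (0.723), Dhx40 (0.692) and Ghitm (0.662), and for Kcnk1 Lman1 (0.776), Rsbn1l (0.733) and Ccp110 (0.728).

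Genes near the members in the genome were counted by annotated start within 1 Mb. In epithelia edgeR called 0 of 17 such genes near Kcnd3 in LEGSKO or LEGSKO+BSO against WT, with 3 and 2 at an unadjusted p below 0.05 and 0 called by DESeq2. Near Kcnj13 it called 0 of 23, with 2 and 0 at an unadjusted p below 0.05 and again 0 by DESeq2. Near Kcnd1 it called 0 of 38, with 5 at an unadjusted p below 0.05 in each comparison, and DESeq2 called 1 in each, Rbm3 in LEGSKO and Wdr13 in LEGSKO+BSO. Near Kcnb2 edgeR called 1 of 6 genes in LEGSKO+BSO against WT in each tissue. Of all genes, 1.17% were called there in epithelia and 5.52% in fibers. The gene was 4930444P10Rik, higher by 0.56 ± 0.08 on the log2 scale in epithelia and 1.12 ± 0.21 in fibers (edgeR, adjusted p = 0.00452 and 0.00738). In LEGSKO+BSO fibers against WT, edgeR also called Rap1a near Kcnd3 (-0.29 ± 0.08), Sppl2a near Kcnip3 (-0.51 ± 0.11) and Ptma near Kcnj13 (0.31 ± 0.08). These were 1 of 16, 1 of 18 and 1 of 16 genes tested. It called 0 of 33 near Kcnd1, 0 of 2 near Kcnd2 and 0 of 12 near Kcnk1 in that comparison. Of these, 2, 0 and 0 had an unadjusted p below 0.05, and DESeq2 called 1, near Kcnd1. No local effect is read from these calls.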

How the data were processed

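Total RNA was sequenced, and per the submitters' processing notes bcl2fastq, CASAVA 1.8, TopHat and DESeq were used on the mm10 (GRCm38) build. How reads were counted, on which annotation and with or without strand, is not given in the sources used. The authors deposited whole-number read counts per Entrez gene, without normalization. Symbols were matched for 24334 of 24415 IDs. Members and gene lists were chosen with earlier results of these data known. The test was the two-sided quasi-likelihood F test of edgeR 4.0.16 under R 4.3.3 (TMM scaling, filterByExpr at min.count 10 and min.total.count 15, Benjamini-Hochberg over all genes tested, threshold 0.05), as 12 libraries in 3 groups within a tissue and as 24 libraries in 6 groups across tissues, with no covariates. The SE is the log2 fold change divided by the root of the F statistic, and an interval is 1.96 SE to either side. CPM used the TMM factors. Named among the 90 other potassium channel genes were every called one within a tissue (up to 6 by adjusted p) and the 4 highest and 4 lowest called folds between tissues at a mean log2 CPM of at least 1. Some genes that this rule names are not reported here. The common dispersion gave a biological coefficient of variation of 14.2% (epithelia), 12.8% (fibers) and 13.7% (all). No pair of libraries in a group agreed within sampling noise. The code was tested on simulated counts. Alternatives were DESeq2 1.42.0, its size factors (RLE), no filter, a replicate block, crystallin genes left out, each library left out and, added after the data were seen, library totals.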

Additional observations from a re-analysis of the deposited data

Results flagged for a closer look

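Single libraries stood apart from the other 3 of their group in 4 of the 40 sets of member levels examined, where the gap to the nearest library exceeded Dixon's critical value, which chance alone exceeds in about 5% of sets. Kcnd1 was at 2.67 CPM in LEGSKO+BSO epithelia library 2, with the others at 1.5 to 1.65. Kcnip3 was at 0.63 CPM in WT epithelia library 1, with the others at 0.169 to 0.247. That is the library with the highest sum of retinal markers, 493 CPM, and the part of retinal RNA in the value was not tested. Kcnb2 was at 1.60 CPM in LEGSKO+BSO fibers library 4, with the others at 1.40 to 1.41. Kcnj13 was at 0.136 CPM in WT fibers library 4, from 4 counts, with 0 counts in the others.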

How the results depend on the processing

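Epithelial Kcnd3 calls held in all 8 repeats without a library and under every other alternative. Of the alternatives for single members, 717 kept their side of the threshold, 16 lost a call and 7 gained one. The 717 include changes of direction where neither fit called the gene. For example, Kcnd3 between tissues in WT went from -0.17 to as high as 0.014 without a library. With a call in either fit, 2 reversed, namely Kcnd3 between tissues with library totals (-0.65 in LEGSKO, -0.21 in LEGSKO+BSO). In counts of calls, 107 of the values that did not come from a left-out library stayed within 1.5 times and 13 did not. DESeq2 called 1 member (Kcnd3) in each fiber comparison with WT and in the tissue difference of LEGSKO+BSO, and among the other potassium channel genes 4 in LEGSKO+BSO against WT epithelia, 4 against LEGSKO epithelia, 2 in LEGSKO+BSO against WT fibers and 1 in the tissue difference of LEGSKO+BSO. RLE factors gave 2 of these genes in LEGSKO+BSO against LEGSKO epithelia and 0 in LEGSKO+BSO against WT fibers. Without a filter there were 3 in LEGSKO+BSO against LEGSKO epithelia, where 0.526% of all genes were called. In LEGSKO+BSO against WT fibers 1 member (Kcnd1) was called without a filter, where 3.71% of all genes were. Kcnd1 held 2 to 28 counts in WT and 3 to 9 in LEGSKO+BSO fiber libraries, so nothing is read from that call. No share of all genes is given for DESeq2 or RLE factors, so nothing is read from those counts. The cause was not tested for any of these. Replicate numbers are not stated to pair the libraries, and the main fits treat all libraries as independent. Between WT and LEGSKO epithelia, deviations of same-numbered libraries correlated at -0.231 to 0.107. Between epithelia and fibers they correlated at 0.016 to 0.194 in WT, -0.05 to 0.08 in LEGSKO and 0.035 to 0.124 in LEGSKO+BSO. The best match of an epithelial library had its own number in 3, 1 and 4 of the 4 pairs, in that order. A pairing of the tissues is therefore not excluded, and the SE between tissues does not allow for it. With a replicate block, 1 member (Kcnd3) was called in LEGSKO epithelia, as Kcnj13 was lost (adjusted p = 0.0756), and 0 other potassium channel genes in LEGSKO+BSO against WT fibers. Without 1 library at a time, members called in LEGSKO and in LEGSKO+BSO against WT ran from 1 to 2 in epithelia and 0 to 1 in fibers, between tissues from 4 to 4 (WT), 4 to 5 (LEGSKO) and 5 to 6 (LEGSKO+BSO), and from 0 to 1 in the tissue difference of LEGSKO+BSO. The other potassium channel genes ran from 2 to 3 in LEGSKO against WT epithelia, 0 to 4 in LEGSKO+BSO against WT or LEGSKO epithelia and against WT fibers, 0 to 1 in LEGSKO against WT fibers, 34 to 37 (WT), 34 to 39 (LEGSKO) and 34 to 40 (LEGSKO+BSO) between tissues, and 0 to 1 in the tissue difference of LEGSKO+BSO. With all libraries, the count filter left Kcnd2 and Kcnip3 untested in every comparison, and Kcnd1 and Kcnj13 within fibers.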
